A study of Mus musculus with 24 samples.

Results

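The response of the mouse olfactory epithelium to octanal, a straight-chain aliphatic aldehyde with a citrus-like smell, was measured by RNA sequencing. The comparison took the 3 octanal libraries and the 3 no-odor control libraries of the same batch, 6 of the 24 libraries of the series, and covered every gene. All mice were wild-type C57BL/6J males aged 8 weeks, with 3 biological replicates per group. Each mouse was kept alone and free of odor for 4 h and was then left for 90 min with filter paper that carried 10 µL of undiluted octanal, or, for the controls, with empty filter paper. The other groups used here had the same handling and were exposed to cis-3-hexenol in the same batch (OC), or to decanal or no odor in a separate batch (AD). Tissue of every group was collected right after exposure and perfused with chilled buffer that held cycloheximide, a drug that stalls ribosomes. RNA came from the homogenate after centrifugation, with the detergent NP-40 added. Libraries were stranded and made from poly(A) RNA.

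An odorant that binds its receptor on a sensory neuron activates the G protein subunit Gnal (Golf), adenylyl cyclase 3 and a cyclic nucleotide-gated channel, and calcium-gated chloride channels amplify the current. Each mature neuron expresses 1 receptor gene out of a very large family, so a single odorant activates only some of the neurons. Calcium and cyclic AMP then switch on immediate early genes within minutes, and slower activity-dependent genes change over hours to days. Sustentacular cells and Bowman's glands surround the neurons and break down odorants with oxidising and conjugating enzymes.

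The 6 libraries held 20730291 to 23905428 counts. Values below are CPM, which sets counts relative to the total of their library, scaled by the trimmed mean of M values, TMM. A gene was called higher or lower at an adjusted p under 0.05 in edgeR's quasi-likelihood test with Benjamini-Hochberg adjustment over the 19175 genes tested, and the fit used all 12 libraries of the batch. Of these genes 2770 (14.4%) were higher and 2870 (15.0%) were lower with octanal, 29.4% together, and the median log2 fold change was -0.02. Among them 89 rose (0.464%) and 376 fell (1.96%) by more than 2-fold, and 3241 (16.9%) were called in each of the 6 fits that left out 1 library. With 40.4% of genes showing no overlap between the 3 octanal and 3 control libraries, the counts of each gene list are to be read against these shares. On the first principal component, with 24.97% of the variance of the batch, the controls lay from -56.73 to -22.30 and the octanal libraries from 15.88 to 21.86. Control 3 held 5.25% of its counts in the gland secretion list, where the other 5 libraries held 0.624% to 1.19%. Control 1 had the highest level among the controls of several early genes and the highest summed level of the red cell list. The labels call the libraries biological replicates.

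A few immediate early genes were higher with octanal, a share near that of all genes. Of 31 immediate early genes tested, 5 rose (16.1%) and 3 fell (9.68%), against 14.4% and 15.0% of all genes. The list median was 0.09. Which cells of the tissue raised these genes was not tested. The risen members were transcription factor genes. Nr4a1 (ENSMUSG00000023034), an orphan nuclear receptor induced by calcium and cyclic AMP, measured 39.3, 16.2 and 20.0 CPM in controls 1 to 3 and 137, 98.0 and 65.6 CPM in octanal libraries 1 to 3 (log2 fold change 1.99, SE 0.32, adjusted p = 0.000439). Its relative Nr4a2 measured 8.60, 6.03 and 6.06 CPM in controls 1 to 3 and 26.0, 20.8 and 13.02 CPM in octanal libraries 1 to 3 (log2 fold change 1.52, SE 0.25, adjusted p = 0.000608). For both genes the octanal libraries all lay above the controls, with octanal 1 the highest and control 1 the highest of the controls. Fosb, an AP-1 subunit gene that was scarce without odor, measured 0.734, 0.0482 and 0.142 CPM in controls 1 to 3 and 4.26, 2.72 and 1.93 CPM in octanal libraries 1 to 3 (log2 fold change 3.17, SE 0.55, adjusted p = 0.000755). Egr4, a zinc finger factor of the Egr family, measured 0.571, 0.627 and 0.758 CPM in controls 1 to 3 and 2.24, 1.78 and 1.51 CPM in octanal libraries 1 to 3 (log2 fold change 1.496, SE 0.32, adjusted p = 0.00321). These 4 genes had no overlap between the groups and were called in each fit that left out 1 library. Without control 1 the list had 8 rises, and without control 1 or control 3 it had 1 fall.

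The most used activity markers were less clear. Egr1 measured 35.8, 15.0 and 15.6 CPM in controls 1 to 3 and 39.2, 52.2 and 36.3 CPM in octanal libraries 1 to 3 (log2 fold change 0.93, SE 0.26, adjusted p = 0.0144), so control 1 came close to octanal 3 without overlap. Its call ended without control 2, control 3 or octanal 2. Fos measured 23.1, 5.26 and 6.16 CPM in controls 1 to 3 and 23.1, 23.4 and 20.6 CPM in octanal libraries 1 to 3 and did not pass (log2 fold change 0.94, adjusted p = 0.118). Control 1 matched the octanal libraries for Fos, while controls 2 and 3 lay far below them, and Fos was called in the fit without control 1. Npas4, a neuron-specific early gene, was at 0.856, 1.06 and 0.568 CPM in the controls and 0.628, 0.467 and 0.378 CPM with octanal and did not pass (adjusted p = 0.21). Nr4a3, Arc, Junb, Jun and Egr3 did not pass either, with log2 fold changes of 0.26, 0.29, -0.15, -0.05 and 0.09. The 3 members that fell were Ier2 at -0.22, Fosl2 at -0.40 and Jund at -0.37. All 3 lost their calls without octanal 2 and without octanal 3. Ier2 also lost its call without control 3, Fosl2 without control 1 or control 3, and Jund without control 1, control 2 or octanal 1. After offsets for transcript length and GC content 0 of the 3 were called.

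**Figure D1:**
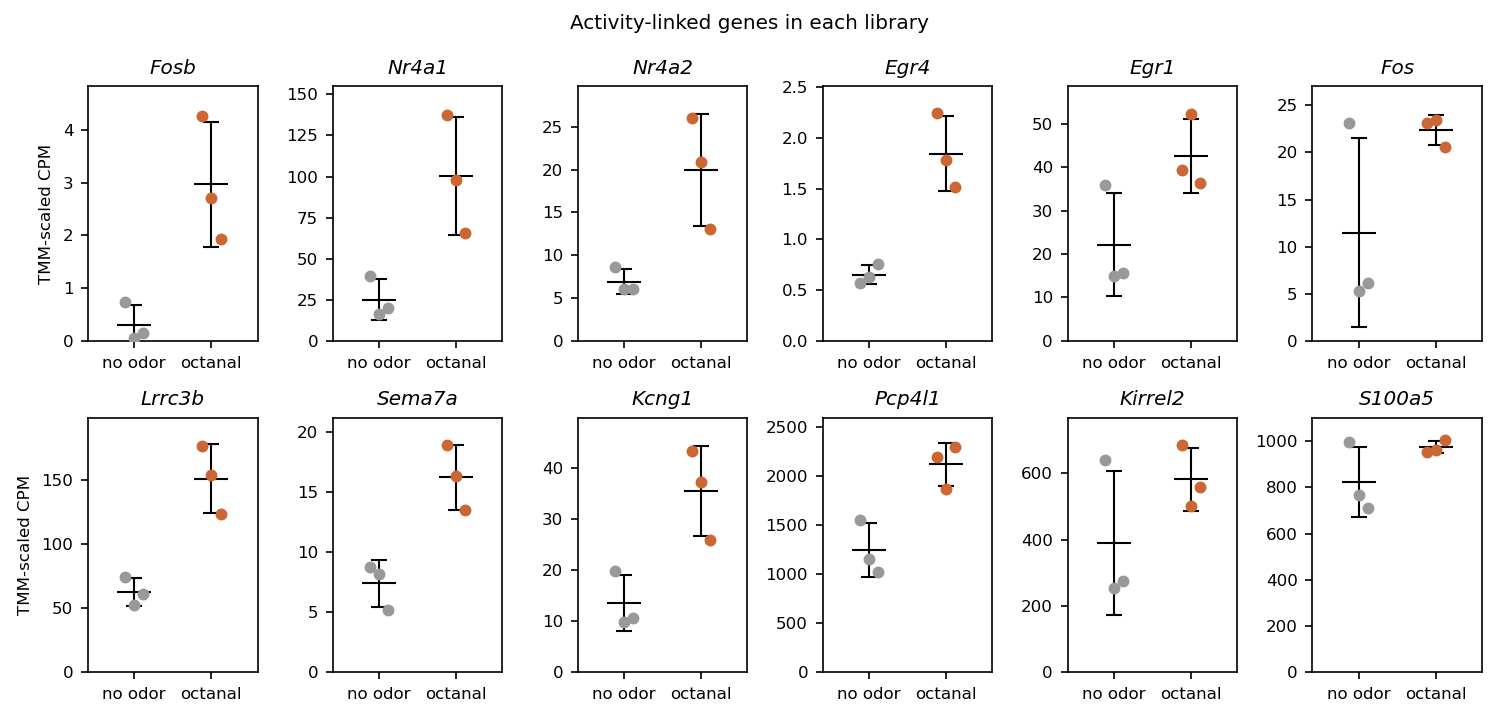
Level of 12 activity-linked genes in each library, as TMM-scaled CPM from 0 on a linear axis. Points are the 3 libraries of a group in replicate order, and bars are the mean with the SD (n = 3). The groups did not overlap for Fosb, Nr4a1, Nr4a2, Egr4, Egr1, Lrrc3b, Sema7a, Kcng1 and Pcp4l1, while control 1 overlapped the octanal libraries for Fos, Kirrel2 and S100a5.

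The promoters of the 4 early genes that rose in every fit are shown because cyclic AMP acts on such genes through CREB, which binds the cyclic AMP response element. Each sequence is a RefSeq window on GRCm38.p6 from 250 bases before to 50 bases after the transcription start, 300 bases, written along the gene's strand. The core of the element, TGACG, on either strand, is in capitals, so it reads TGACG or CGTCA. Fosb (chr7:19309996-19310295, minus strand) holds 1 match, Nr4a1 (chr15:101266596-101266895, plus strand) 4, Nr4a2 (chr2:57123954-57124253, minus strand) 4 and Egr4 (chr6:85513540-85513839, minus strand) 2.
Fosb: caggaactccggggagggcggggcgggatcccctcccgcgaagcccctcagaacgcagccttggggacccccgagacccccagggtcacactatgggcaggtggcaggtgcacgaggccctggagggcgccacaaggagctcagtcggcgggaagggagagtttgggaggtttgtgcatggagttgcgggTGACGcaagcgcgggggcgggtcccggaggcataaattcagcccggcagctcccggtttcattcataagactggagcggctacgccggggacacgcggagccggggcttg
Nr4a1: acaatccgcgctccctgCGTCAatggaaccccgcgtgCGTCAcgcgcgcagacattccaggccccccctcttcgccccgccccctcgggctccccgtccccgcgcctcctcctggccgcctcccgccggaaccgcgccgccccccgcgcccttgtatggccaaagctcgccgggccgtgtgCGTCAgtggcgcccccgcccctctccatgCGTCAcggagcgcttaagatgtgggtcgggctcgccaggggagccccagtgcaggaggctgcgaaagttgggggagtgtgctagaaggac
Nr4a2: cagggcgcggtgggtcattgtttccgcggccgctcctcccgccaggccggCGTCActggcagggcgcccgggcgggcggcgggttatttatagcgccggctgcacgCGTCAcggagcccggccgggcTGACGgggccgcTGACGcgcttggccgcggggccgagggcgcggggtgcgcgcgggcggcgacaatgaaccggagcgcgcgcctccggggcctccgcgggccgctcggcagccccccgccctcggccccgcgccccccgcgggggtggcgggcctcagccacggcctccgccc
Egr4: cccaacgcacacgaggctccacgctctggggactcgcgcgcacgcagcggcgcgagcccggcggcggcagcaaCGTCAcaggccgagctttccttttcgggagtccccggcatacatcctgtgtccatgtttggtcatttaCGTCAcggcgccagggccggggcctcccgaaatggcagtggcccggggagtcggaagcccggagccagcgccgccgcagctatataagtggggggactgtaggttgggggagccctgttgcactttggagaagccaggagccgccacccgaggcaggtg
All 4 windows held this core, which 20.8% of the 32851 windows of this length hold. Of the early genes that did not pass, 14 of 19 with a window held it too in at least 1 window, among them Fos and Npas4. Of the 3 that fell 0 of 2 with a window did. These count genes, some of which may have several windows, while the 20.8% counts single windows. The full palindrome TGACGTCA, in which the core overlaps itself on both strands, was in 0 of the 4 windows and in 1.79% of all windows. The AP-1 motif TGANTCA was in 0 of the 4 and in 7.81% of all. A match describes letters in the window, not binding.

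Most genes whose level follows the activity of olfactory sensory neurons rose. Of the 7 tested, 5 rose and 0 fell, with a median of 1.12, and the same 5 rose in each fit that left out 1 library. Lrrc3b, a leucine-rich repeat membrane protein gene, measured 74.7, 52.7 and 61.1 CPM in controls 1 to 3 and 177, 154 and 124 CPM in octanal libraries 1 to 3 (log2 fold change 1.27, SE 0.14, adjusted p = 0.000103). Sema7a, a membrane-anchored semaphorin that guides olfactory axons, measured 8.81, 8.20 and 5.21 CPM in controls 1 to 3 and 18.9, 16.3 and 13.5 CPM in octanal libraries 1 to 3 (log2 fold change 1.13, SE 0.16, adjusted p = 0.000225). Kcng1, a modifier subunit of voltage-gated potassium channels, measured 19.8, 9.93 and 10.7 CPM in controls 1 to 3 and 43.3, 37.2 and 25.8 CPM in octanal libraries 1 to 3 (log2 fold change 1.38, SE 0.21, adjusted p = 0.000354). In all 3 genes the lowest octanal library exceeded the highest control. Pcp4l1, a small calmodulin-binding protein gene, measured 1549, 1158 and 1022 CPM in controls 1 to 3 and 2188, 1872 and 2289 CPM in octanal libraries 1 to 3 (log2 fold change 0.77, SE 0.12, adjusted p = 0.000474). Pcdh10, an adhesion protein of the protocadherin family, measured 11.6, 4.24 and 5.50 CPM in controls 1 to 3 and 17.2, 16.1 and 13.7 CPM in octanal libraries 1 to 3 (log2 fold change 1.12, SE 0.27, adjusted p = 0.00559). The adhesion gene Kirrel2 did not pass at 638, 256 and 275 CPM in the controls and 685, 501 and 559 CPM with octanal (log2 fold change 0.58, adjusted p = 0.0925). S100a5, a calcium-binding protein whose level follows odor input, did not pass at 996, 768 and 710.1 CPM in the controls and 955, 962 and 1004 CPM with octanal (log2 fold change 0.24, adjusted p = 0.106). Both genes had a control 1 level inside the octanal range, and all 7 genes were called without control 1. The calls of the 5 that rose held after length and GC offsets, where Kirrel2 and S100a5 were called too.

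Feedback regulators that curb the MAP kinase pathway, a driver of early gene transcription, split both ways: 4 of 15 rose, 4 fell, and the median was 0.01. The phosphatase gene Dusp6, which inactivates ERK, measured 66.0, 68.0 and 67.1 CPM in the controls and 95.04, 93.2 and 85.1 CPM with octanal (log2 fold change 0.44, SE 0.06, adjusted p = 0.000248). Another phosphatase gene, Dusp14, measured 163, 176 and 169 CPM in the controls and 269, 226 and 207 CPM with octanal (log2 fold change 0.47, SE 0.09, adjusted p = 0.00119). The early-induced phosphatase gene Dusp1 measured 98.2, 90.5 and 87.4 CPM in the controls and 119, 114 and 126 CPM with octanal (log2 fold change 0.38, SE 0.08, adjusted p = 0.00274). The groups were apart in all 3, and these calls held in each fit that left out 1 library. Dusp5 rose by less (log2 fold change 0.27) and was called in only 1 of those fits, the one without control 2. The fallen members were Spry2 at -0.85, Dusp16 at -0.44, Errfi1 at -0.31 and Dusp8 at -0.30. Spry2 lost its call without control 1, control 3, octanal 2 or octanal 3, Dusp16 without control 3, octanal 2 or octanal 3, Errfi1 without octanal 1 or octanal 2, and Dusp8 without control 1 or octanal 3. The number of fallen members was 1 without octanal 2 or octanal 3 and 2 without control 1 or control 3.

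Several genes of odor transduction rose. Of 21 genes 9 rose and 3 fell (median 0.21), of which 5 rose and 1 fell in each fit that left out 1 library. Ano2, the calcium-gated chloride channel of the cilia, measured 183, 226 and 182 CPM in the controls and 334, 307 and 336 CPM with octanal (log2 fold change 0.73, SE 0.10, adjusted p = 0.000216). Pde1c, a calcium-dependent phosphodiesterase that clears cyclic AMP in cilia, measured 274, 284 and 279 CPM in the controls and 450.3, 444 and 444 CPM with octanal (log2 fold change 0.68, SE 0.08, adjusted p = 0.000105). Ric8b, the factor that stabilises Golf, measured 602, 776 and 668 CPM in the controls and 1021, 1049.6 and 1056 CPM with octanal (log2 fold change 0.61, SE 0.10, adjusted p = 0.000393). Each of these exceeded all controls in all octanal libraries. Adcy3, the cyclase itself, measured 612, 761 and 575 CPM in the controls and 994, 963 and 944 CPM with octanal (log2 fold change 0.57, SE 0.10, adjusted p = 0.000664). Slc24a4, the exchanger that ends the response by removing calcium, measured 46.4, 54.9 and 50.2 CPM in the controls and 63.6, 67.9 and 69.6 CPM with octanal (log2 fold change 0.41, SE 0.07, adjusted p = 0.00087). The channel genes Cngb1 at 0.22, Cnga4 at 0.31 and Cnga2 at 0.27 also rose, and all 3 calls ended without control 1 or octanal 1, that of Cngb1 also without octanal 2, and those of Cnga4 and Cnga2 without octanal 3. Arrb2 at 0.21 was called in only 1 of the 6 fits, the one without control 2. Beside Omp, described next, the chloride importer gene Slc12a2 (log2 fold change -0.30, SE 0.09, adjusted p = 0.0185) and the G protein subunit gene Gng13 (log2 fold change -0.40, SE 0.12, adjusted p = 0.0205) fell. Slc12a2 lost its call without control 3 or octanal 1, and Gng13 without control 2, octanal 1 or octanal 2. Gnal, at 0.12 (adjusted p = 0.321), did not pass. The number of risen transduction genes was 5 without control 1 or octanal 1, 6 without octanal 3 and 12 without control 2. The number of fallen ones was 1 without octanal 1.

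Omp, the olfactory marker protein of mature neurons, fell. It measured 12255, 13314 and 13649 CPM in the controls and 9659, 9264 and 9704 CPM with octanal (log2 fold change -0.45, SE 0.05, adjusted p = 0.000105), with no overlap, and it was called in every fit that left out a library. Of 15 neuron maturation genes, Omp included, 6 fell and 1 rose (median -0.22). Ebf3, a transcription factor of the olfactory lineage, measured 105, 93.7 and 115 CPM in the controls and 59.7, 59.7 and 67.4 CPM with octanal (log2 fold change -0.75, SE 0.08, adjusted p = 8.17e-05). Some but not all genes of the list that immature neurons express were lower as well. Dcx fell by 0.37, Ncam1 by 0.35 and Stmn1 by 0.33 on the log2 scale, with adjusted p of 0.00333, 0.00605 and 0.00453. Gap43, a growth-cone protein of young neurons, measured 357, 272 and 315 CPM in the controls and 249, 255 and 285 CPM with octanal (log2 fold change -0.26, SE 0.09, adjusted p = 0.0381), and its call ended without control 1, control 3, octanal 1 or octanal 2. Crmp1, a cytoskeletal protein of growing axons, rose (log2 fold change 0.31, SE 0.09, adjusted p = 0.013). Tubb3 and Stmn2 did not pass, at -0.07 and -0.11, nor did the rest of the list. In bulk tissue, fewer cells of a type and less RNA per cell cannot be told apart, for these genes and for every cell type below.

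Axon sorting molecules, some of which depend on neuronal activity, also went both ways. Of 20 tested, 3 rose and 7 fell (median -0.05). The rises were Sema7a and Pcdh10, described above, and Ncam2 (log2 fold change 0.27, SE 0.08, adjusted p = 0.0188), whose call ended without octanal 2 or octanal 3. Efna5, a repulsive ephrin found in a complementary pattern to its Epha5 receptor, measured 48.4, 51.6 and 67.3 CPM in the controls and 28.7, 31.5 and 30.3 CPM with octanal (log2 fold change -0.88, SE 0.11, adjusted p = 0.00013). Its receptor Epha5 did not pass (log2 fold change 0.29, adjusted p = 0.221). Pcdh19 measured 26.9, 26.4 and 30.2 CPM in the controls and 17.5, 19.1 and 20.5 CPM with octanal (log2 fold change -0.55, SE 0.08, adjusted p = 0.000358), and Pcdh17 measured 71.6, 69.8 and 93.6 CPM in the controls and 51.0, 52.1 and 60.2 CPM with octanal (log2 fold change -0.53, SE 0.11, adjusted p = 0.00223). Octanal libraries were below every control for Efna5 and both protocadherins. The semaphorin receptor genes Plxna1 at -0.43 and Nrp2 at -0.42 fell as well, and Nrp2 was not called after length and GC offsets. Dscam at -0.30 fell and lost its call without control 3 or octanal 3, and Slit1 at -0.36 fell and lost it without control 1, octanal 1 or octanal 3. Neither these 2 nor Ncam2 were called after the offsets. Without control 1 the list had 5 rises.

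Most odorant receptors were at a higher level with octanal, and more of them rose than fell. Of 1093 receptor genes counted, 923 passed the filter on low counts, and 757 of these had a log2 fold change above 0, with a median of 0.35. The call was made for 157 (17.0%) in the upward and 4 (0.433%) in the downward direction, against 14.4% and 15.0% of all genes. The octanal libraries lay above all controls for 230 receptors and below all controls for 12, where 19.7% and 20.6% of all genes did so. The summed level over the receptors tested was 3629.7, 4164 and 3500.2 CPM in controls 1 to 3 and 4796, 4802 and 5211 CPM in octanal libraries 1 to 3. All octanal libraries lay above all controls. The count of risen receptors was 103 without octanal 3, 111 without control 3, 199 without control 2, and 85 after offsets for transcript length and GC content. After these offsets 9.21% of the receptors rose and 0.433% fell, against 13.5% and 13.1% of all genes, and the receptors' median was 0.20. In each of the 6 fits that left out 1 library 81 receptors rose and 0 fell. The other single odorant of the batch showed this shift as well. Against the same 3 controls cis-3-hexenol had 87 of the 923 receptors higher (9.43%) and 0 lower, with a median of 0.42. The receptors' median of octanal minus cis-3-hexenol was -0.08. Receptor genes took 0.371% of the counts in the OC controls, 0.500% with octanal, 0.493% with cis-3-hexenol and 0.515% in the AD controls. The part of a low control level in the rise was not tested.

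The receptors with the highest mean level, which reflects how many neurons choose a receptor as well as RNA per neuron, did not all pass the test. Olfr727 measured 107, 112 and 91.3 CPM in controls 1 to 3 and 166, 159.9 and 164 CPM in octanal libraries 1 to 3 (log2 fold change 0.66, SE 0.11, adjusted p = 0.000545). Olfr536 measured 107, 103 and 84.6 CPM in the controls and 124, 143 and 129 CPM with octanal (log2 fold change 0.43, SE 0.08, adjusted p = 0.00167). For both the octanal libraries were above the controls, and both calls held in each fit that left out 1 library. Olfr1507, an abundant receptor of the ventral zone also known as MOR28, measured 95.2, 75.1 and 62.6 CPM in the controls and 93.4, 99.1 and 93.1 CPM with octanal and did not pass (log2 fold change 0.29, SE 0.11, adjusted p = 0.0643). Olfr1348 measured 65.9, 64.3 and 66.3 CPM in the controls and 70.3, 72.0 and 75.6 CPM with octanal and did not pass (log2 fold change 0.15, SE 0.06, adjusted p = 0.0919). Olfr15 rose (log2 fold change 0.35, SE 0.07, adjusted p = 0.00255) in each of those fits, and Olfr726 (log2 fold change 0.31, SE 0.11, adjusted p = 0.0372) in 3 of them, losing its call without control 3, octanal 1 or octanal 3. These 6 were chosen for their level.

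The 8 receptors with the smallest p among those that rose were all of class II, the class of land vertebrates. Olfr1463 measured 18.1, 25.03 and 19.7 CPM in controls 1 to 3 and 38.4, 40.0 and 43.9 CPM in octanal libraries 1 to 3 (log2 fold change 0.96, SE 0.10, adjusted p = 7.76e-05). Olfr1257 measured 21.8, 26.4 and 20.98 CPM in controls 1 to 3 and 53.4, 54.6 and 41.0 CPM in octanal libraries 1 to 3 (log2 fold change 1.11, SE 0.13, adjusted p = 0.000105). In both the lowest octanal library was well above the highest control. Olfr1110 measured 15.98, 15.5 and 15.9 CPM in the controls and 26.5, 24.7 and 31.5 CPM with octanal (log2 fold change 0.81, SE 0.10, adjusted p = 0.00012). Olfr168 measured 16.5, 16.6 and 16.5 CPM in the controls and 27.0, 28.2 and 27.9 CPM with octanal (log2 fold change 0.74, SE 0.10, adjusted p = 0.000153), with the controls nearly equal. Olfr789 at 0.90, Olfr733 at 0.84, Olfr1200 at 0.83 and Olfr1382 at 0.67 completed the 8, with adjusted p from 0.000153 to 0.00026. All 8 held in each fit that left out 1 library and after length and GC offsets. Class II receptors had 152 of 798 higher and 4 lower (median 0.33), and class I receptors, which fish also have, had 3 of 109 higher and 0 lower (median 0.44). The class I count was 0 without control 1, without octanal 3 and after length and GC offsets, and 13 without control 2. Of 8 trace amine-associated receptors tested, 1 rose, Taar6 (log2 fold change 0.88, SE 0.28, adjusted p = 0.0292), and its call ended without control 3, octanal 1 or octanal 3.

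Few receptors fell. Olfr291 measured 3.67, 4.24 and 4.97 CPM in controls 1 to 3 and 2.20, 2.93 and 2.86 CPM in octanal libraries 1 to 3 (log2 fold change -0.69, SE 0.20, adjusted p = 0.0183). Olfr1359 measured 7.42, 4.53 and 3.27 CPM in controls 1 to 3 and 2.38, 2.00 and 4.03 CPM in octanal libraries 1 to 3 (log2 fold change -0.86, SE 0.31, adjusted p = 0.048). The other 2 were at still lower levels. Olfr95 measured 1.101, 1.25 and 1.80 CPM in the controls and 0.538, 0.722 and 0.882 CPM with octanal (log2 fold change -0.94, SE 0.33, adjusted p = 0.0442). Olfr828 measured 0.408, 0.530 and 0.711 CPM in the controls and 0.224, 0.170 and 0.294 CPM with octanal (log2 fold change -1.23, SE 0.43, adjusted p = 0.0442). Octanal 3 overlapped the controls for Olfr1359, and the other 3 had no overlap. Each of the 4 calls ended without octanal 1. Olfr291 also lost its call without control 3, Olfr1359 without control 1, control 2 or octanal 2, and Olfr95 and Olfr828 kept theirs only without control 1. The number of fallen receptors was 2 without control 2, octanal 2 or octanal 3, 1 without control 3 and 0 without octanal 1. Olfr2, the mouse I7 receptor whose textbook ligand is octanal, measured 3.96, 3.09 and 2.65 CPM in controls 1 to 3 and 2.73, 3.44 and 2.69 CPM in octanal libraries 1 to 3 and did not pass (log2 fold change -0.13, SE 0.21, adjusted p = 0.675). Its groups overlapped, and its 95% interval ran from -0.57 to 0.31 on the log2 scale.

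**Figure D2:**
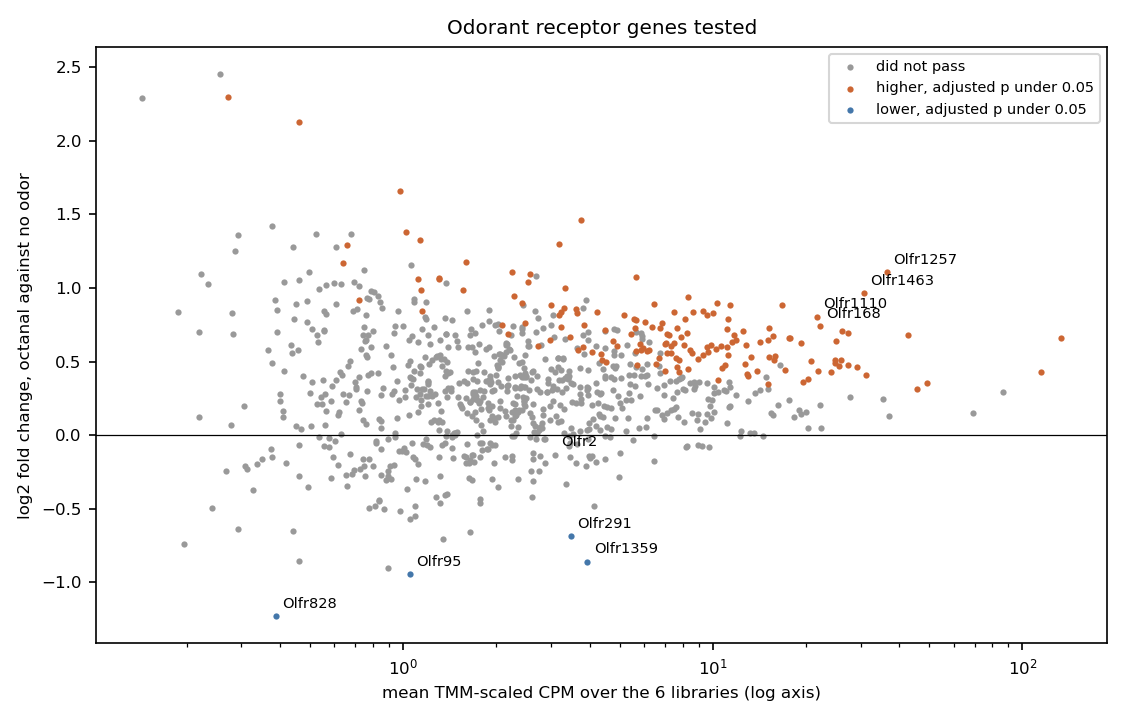
Log2 fold change (octanal against no odor) of the 923 odorant receptor genes tested, against their mean TMM-scaled CPM over the 6 libraries on a log axis. Most points, 757, lie above 0. The 4 receptors called lower are named, as are Olfr2 and 4 of the 157 called higher.

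Regulators of receptor choice, the process by which a neuron settles on 1 receptor gene, contained the gene with the second smallest p of all. Atf5, a transcription factor translated when receptor protein first triggers the unfolded protein response in the maturing neuron, measured 171, 158 and 188 CPM in controls 1 to 3 and 81.0, 73.8 and 79.7 CPM in octanal libraries 1 to 3 (log2 fold change -1.14, SE 0.09, adjusted p = 1.77e-05). All octanal libraries lay far below the lowest control, and the call held after length and GC offsets. Eif2ak3, the kinase PERK that acts upstream of Atf5, measured 20.4, 22.7 and 19.9 CPM in the controls and 28.02, 28.1 and 25.7 CPM with octanal (log2 fold change 0.38, SE 0.08, adjusted p = 0.00261). Kdm1a, the demethylase LSD1 that opens receptor loci, measured 94.9, 86.4 and 90.5 CPM in the controls and 124, 116 and 112 CPM with octanal (log2 fold change 0.37, SE 0.07, adjusted p = 0.000946). Ehmt2, a histone H3 lysine 9 methyltransferase, fell (log2 fold change -0.33, SE 0.08, adjusted p = 0.00641), but was not called after length and GC offsets. Without control 2 the list had 5 rises, and without control 3 it had 3 falls. The other calls of this list, Adcy3 included, held in every fit that left out a library. Ddit3, Lhx2, Ldb1, Emx2 and Ebf1 did not pass, with log2 fold changes from -0.14 to -0.01. Among 21 unfolded protein response genes 1 rose and 2 fell (median 0.06), of which Creld2 (log2 fold change -0.32, SE 0.08, adjusted p = 0.00667) alone held in each of those fits. That list had 3 rises without control 3.

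Targets of NRF2, the transcription factor that answers to electrophiles such as reactive aldehydes, rose in part. Of 22 tested, 9 rose and 1 fell (median 0.11), and 7 of the rises held in each fit that left out 1 library. G6pdx, which makes NADPH in the pentose phosphate pathway, measured 93.3, 112 and 106 CPM in controls 1 to 3 and 172, 184 and 179.6 CPM in octanal libraries 1 to 3 (log2 fold change 0.78, SE 0.08, adjusted p = 7.76e-05). Txnrd1, thioredoxin reductase, measured 297, 283 and 278 CPM in the controls and 411, 399.9 and 396 CPM with octanal (log2 fold change 0.49, SE 0.08, adjusted p = 0.000358). Srxn1, which repairs oxidised peroxiredoxins, measured 90.8, 89.9 and 94.6 CPM in the controls and 136, 119 and 124 CPM with octanal (log2 fold change 0.46, SE 0.06, adjusted p = 0.0002). Each of these genes had its octanal libraries above every control. Gclc, the catalytic subunit of glutathione synthesis, measured 109, 99.3 and 93.2 CPM in the controls and 140.4, 149 and 139 CPM with octanal (log2 fold change 0.50, SE 0.09, adjusted p = 0.000669). Ugdh at 0.42, Osgin1 at 0.36 and Ephx1 at 0.30 also rose in every fit, while Gsr at 0.21 and Me1 at 0.23 lost their calls without octanal 2 or octanal 3, Gsr also without control 3 and Me1 without control 1 or octanal 1. Slc7a11, the cystine transporter, fell (log2 fold change -1.18, SE 0.28, adjusted p = 0.00528). Classical targets did not pass: Hmox1 stood at -0.20 (adjusted p = 0.103), Gclm at 0.12 and Nqo1 at -0.22. Nqo1 measured 155, 414 and 446 CPM in the controls and 251, 286 and 332 CPM with octanal, with control 1 far below the other 2. Without control 1 the list had 2 falls.

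Promoter windows of 4 risen NRF2 targets are shown because NRF2 binds the antioxidant response element. Only the form TGACNNNGC was searched, on either strand, and put in capitals. Other forms were not searched and stay in lower case. The Srxn1 window also holds TGAGTCAGC, with G for C at 1 base, before the start, while its marked match lies after the start. The build, length and source are as above. The windows are G6pdx at chrX:74428831-74429130 (minus strand, 1 match), Srxn1 at chr2:152105274-152105573 (plus strand, 1 match), Txnrd1 at chr10:82858956-82859255 (plus strand, 1 match, the only 1 of its 3 windows with a match) and Ugdh at chr5:65435793-65436092 (minus strand, 2 matches).
G6pdx: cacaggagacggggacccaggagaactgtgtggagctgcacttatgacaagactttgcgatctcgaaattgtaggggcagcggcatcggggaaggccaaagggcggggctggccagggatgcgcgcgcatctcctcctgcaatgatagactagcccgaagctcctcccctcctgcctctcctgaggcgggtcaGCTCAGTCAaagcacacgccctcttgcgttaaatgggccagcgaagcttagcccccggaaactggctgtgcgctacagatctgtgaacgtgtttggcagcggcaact
Srxn1: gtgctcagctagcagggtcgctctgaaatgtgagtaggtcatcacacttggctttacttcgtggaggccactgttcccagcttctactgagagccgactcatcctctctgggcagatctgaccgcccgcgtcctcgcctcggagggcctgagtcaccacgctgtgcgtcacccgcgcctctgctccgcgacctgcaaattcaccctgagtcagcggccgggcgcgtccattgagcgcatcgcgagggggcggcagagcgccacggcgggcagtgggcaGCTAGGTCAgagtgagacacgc
Txnrd1: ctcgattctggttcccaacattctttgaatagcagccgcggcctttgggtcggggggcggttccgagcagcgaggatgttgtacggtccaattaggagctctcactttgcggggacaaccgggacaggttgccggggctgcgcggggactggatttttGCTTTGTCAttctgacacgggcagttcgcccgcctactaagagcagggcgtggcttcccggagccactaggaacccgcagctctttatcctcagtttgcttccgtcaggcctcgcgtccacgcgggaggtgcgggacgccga
Ugdh: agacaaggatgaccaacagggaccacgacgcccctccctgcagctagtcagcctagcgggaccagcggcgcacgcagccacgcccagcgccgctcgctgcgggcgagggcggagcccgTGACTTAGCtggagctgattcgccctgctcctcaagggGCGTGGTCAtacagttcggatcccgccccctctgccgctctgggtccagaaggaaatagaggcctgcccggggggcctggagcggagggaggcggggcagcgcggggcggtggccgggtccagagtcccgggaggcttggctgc
The searched form was in at least 1 window of 5 of the 7 risen targets that have a window. It was also in 4 of the 10 with a window that did not pass, against 12.4% of all windows. The first 2 count genes, some with several windows, and the last counts single windows, so they are unlike measures. The element shares letters with the AP-1 motif where the bases between its 2 parts allow it.

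Some members of the aldehyde and alcohol metabolism list rose. Of 33 genes 7 rose (21.2%) and 1 fell (3.03%), against 14.4% and 15.0% of all genes (median 0.10). In each fit that left out 1 library 5 of the 33 rose and 0 fell, where 16.9% of all genes were called in either direction. Aldh3a2, the fatty aldehyde dehydrogenase whose substrates include medium- and long-chain aliphatic aldehydes, measured 74.6, 83.0 and 81.9 CPM in controls 1 to 3 and 120.1, 119 and 117 CPM in octanal libraries 1 to 3 (log2 fold change 0.57, SE 0.07, adjusted p = 0.000127). Aldh6a1, a mitochondrial enzyme of valine breakdown, measured 75.2, 94.2 and 98.8 CPM in the controls and 156, 157 and 166 CPM with octanal (log2 fold change 0.84, SE 0.10, adjusted p = 0.000115). Aldh18a1, which works in proline synthesis, measured 35.8, 38.5 and 39.6 CPM in the controls and 57.3, 62.1 and 58.9 CPM with octanal (log2 fold change 0.65, SE 0.08, adjusted p = 0.00011). All 3 had no overlap between the groups. The retinoic acid synthesis genes Aldh1a2 at 0.36 and Aldh1a3 at 0.45 rose in each fit that left out 1 library too. Aox3 at 0.41, an aldehyde oxidase, and Aldh1a7 at 0.31 lost their calls without control 1 or octanal 2, and Aldh1a7 also without control 2 or octanal 3. The fallen gene was Aldh5a1 (log2 fold change -0.45, SE 0.13, adjusted p = 0.0157), which lost its call without control 3 or octanal 2. Aldh3a1 at 0.20, Aldh2 at 0.10 and Aldh1a1 at 0.16 did not pass. The list had 13 rises without control 3 and 4 falls without control 1.

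Nasal xenobiotic enzymes had 11 of 21 members higher and 0 lower (median 0.29), 10 of them in each fit that left out 1 library. Cyp2f2, a cytochrome P450 abundant in airway and olfactory epithelium, measured 1567, 2335 and 2195 CPM in the controls and 3225, 3310.0 and 3524 CPM with octanal (log2 fold change 0.72, SE 0.11, adjusted p = 0.000292). Ugt2a2, a glucuronosyltransferase of the olfactory epithelium, measured 178, 279 and 246 CPM in the controls and 383, 412 and 421 CPM with octanal (log2 fold change 0.79, SE 0.12, adjusted p = 0.000408). Its gene shares exons with Ugt2a1, which rose by 0.47, so counts of these 2 may not be fully separable. The flavin monooxygenase genes Fmo1 and Fmo2 rose by 0.60 and 0.50, and Cyp4b1 by 0.49. Cyp2g1, a P450 found almost only in the olfactory mucosa, measured 1326, 1776 and 1782 CPM in the controls and 2207, 2128 and 2429.9 CPM with octanal (log2 fold change 0.47, SE 0.10, adjusted p = 0.00243), and control 1 was the lowest library in Cyp2f2, Ugt2a2 and Cyp2g1. Most of these enzymes belong to sustentacular and gland cells. The summed level of the sustentacular list was 17623, 21921 and 24673 CPM in the controls and 23781, 24300.0 and 26058 CPM with octanal, so control 3 overlapped the octanal libraries and control 1 lay lowest. Of its 11 genes 4 rose and 1 fell (median 0.05), with 6 rises without control 3. The part of sustentacular cell content in the enzyme rises was not tested. Il33, which encodes a cytokine that damaged epithelium releases as an alarm, measured 299, 344 and 307 CPM in controls 1 to 3 and 532, 548 and 529 CPM in octanal libraries 1 to 3 (log2 fold change 0.76, SE 0.08, adjusted p = 7.76e-05), without overlap.

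Of 14 genes of lipid and sterol synthesis 7 rose and 3 fell (median 0.22). Sqle, squalene epoxidase, measured 60.4, 69.2 and 56.7 CPM in the controls and 102, 100.2 and 97.3 CPM with octanal (log2 fold change 0.69, SE 0.08, adjusted p = 0.000119). Idi1, isopentenyl diphosphate isomerase, measured 52.4, 45.8 and 53.1 CPM in the controls and 78.9, 71.2 and 72.5 CPM with octanal (log2 fold change 0.56, SE 0.08, adjusted p = 0.000239). Hmgcs1 at 0.35, an early step of the same pathway, rose in each fit that left out 1 library. Insig1 at 0.34 lost its call only without control 1, while Fads2 at 0.26 lost its call without control 1, control 2, octanal 2 or octanal 3. Hmgcs1 was not called after length and GC offsets. Scd1, a desaturase, measured 60.5, 67.5 and 71.8 CPM in the controls and 48.5, 50.5 and 45.3 CPM with octanal (log2 fold change -0.47, SE 0.08, adjusted p = 0.000613). Acaca, which makes malonyl-CoA, at -0.44 and the desaturase gene Scd2 at -0.24 lost their calls without control 1, control 3, octanal 1 or octanal 2, and Scd2 also without octanal 3. The rises counted 4 without control 1, and the falls 1 without control 1, control 3, octanal 1 or octanal 2.

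Clock genes changed in both directions, 7 of 18 higher and 4 lower (median 0.12). The repressor gene Cry1 measured 38.5, 39.5 and 35.0 CPM in the controls and 70.6, 64.2 and 59.1 CPM with octanal (log2 fold change 0.78, SE 0.10, adjusted p = 0.000117). Arntl (Bmal1), the activator, measured 7.54, 8.25 and 8.62 CPM in the controls and 12.2, 12.4 and 15.5 CPM with octanal (log2 fold change 0.72, SE 0.15, adjusted p = 0.00212), and its partner Npas2 rose by 0.65. The groups did not overlap for any of the 3. Nfil3 at 0.57 and Cry2 at 0.43 rose too, and Per3 (log2 fold change -0.48, SE 0.11, adjusted p = 0.00482) and Bhlhe41 (log2 fold change -0.43, SE 0.11, adjusted p = 0.00687) fell, in every fit that left out a library. Nr1d1 at 0.30 lost its call without octanal 2. The fallen genes Dbp at -0.39 and Clock at -0.30 lost their calls without control 3, octanal 1 or octanal 3, and Clock also without octanal 2. Without control 3, octanal 1 or octanal 3 the list had 2 falls. The hour at which tissue was taken is not given in the sources used here. Of 18 heat shock genes 6 rose and 1 fell, and only Hspa4l (log2 fold change 0.52, SE 0.06, adjusted p = 0.000103) and Hspa4 (log2 fold change 0.52, SE 0.09, adjusted p = 0.000556), both Hsp110-type cochaperones, held in each fit. The number that rose was 2 without octanal 1, where Hsph1 and the constitutive chaperone Hspa8 lost their calls. The inducible Hspa1a and Hspa1b did not pass, at 0.38 and 0.50. Among 12 glucocorticoid-responsive genes 1 rose, Sgk1 (log2 fold change 0.47, SE 0.09, adjusted p = 0.00142), and 2 fell, Klf9 (log2 fold change -0.55, SE 0.12, adjusted p = 0.00399) and Cdkn1a (log2 fold change -0.21, SE 0.08, adjusted p = 0.0495), whose call ended without control 1, control 3, octanal 1 or octanal 2. That list had 4 falls without control 3 or octanal 3. Of 14 interferon-stimulated genes 2 fell in each of those fits, Rsad2 (log2 fold change -0.89, SE 0.19, adjusted p = 0.00266) and Bst2 (log2 fold change -0.76, SE 0.17, adjusted p = 0.00411), both antiviral effectors.

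**Figure D3:**
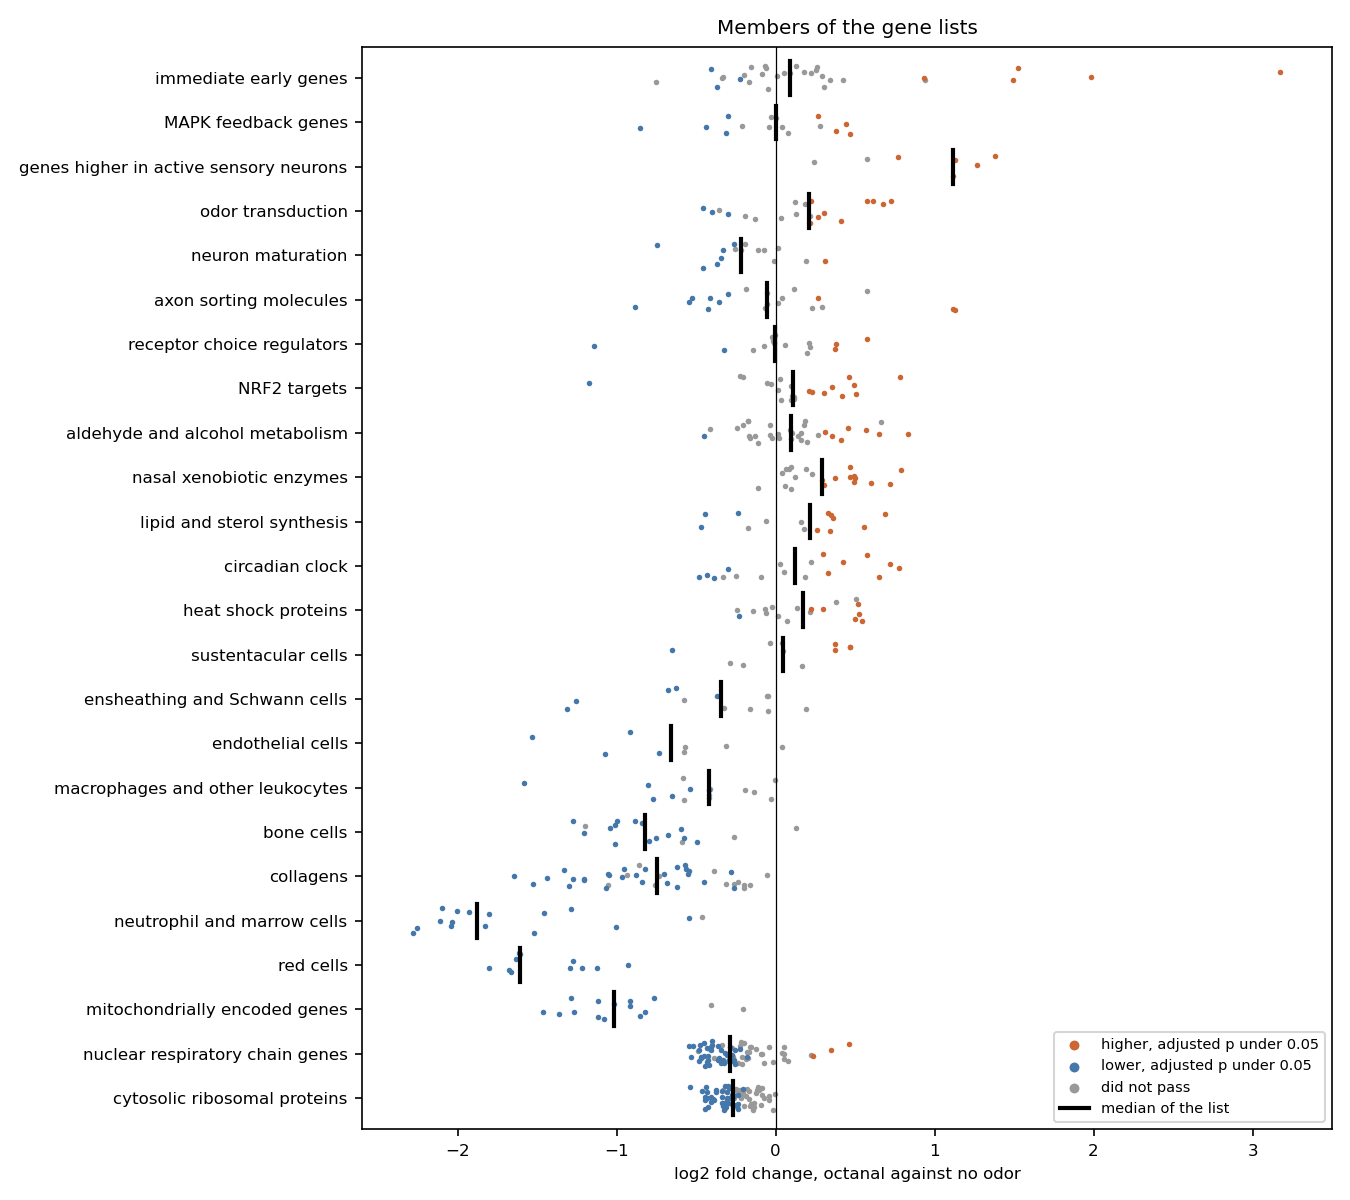
Log2 fold change (octanal against no odor) of each tested member of 24 gene lists, one row per list. Orange members were called higher, blue members lower, grey members did not pass, and the black bar is the median of the list. Medians run from -1.88 for neutrophil and marrow cells to 1.12 for genes higher in active sensory neurons.

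Genes of bone, marrow, blood and vessels were lower with octanal. The neutrophil and marrow list had 15 of 16 members lower and 0 higher (median -1.88), with summed levels of 302, 349.8 and 471 CPM in the controls and 168, 192 and 273 CPM with octanal. All 3 octanal libraries were below the controls. Ngp, a neutrophil granule protein, measured 31.0, 21.5 and 30.9 CPM in the controls and 5.29, 9.81 and 4.24 CPM with octanal (log2 fold change -2.11, SE 0.28, adjusted p = 0.000161). Elane, neutrophil elastase, measured 7.58, 6.80 and 7.34 CPM in the controls and 0.852, 2.76 and 1.64 CPM with octanal (log2 fold change -2.04, SE 0.30, adjusted p = 0.000257). Red cell genes fell in 11 of 11 cases (median -1.61). Their sum was 4521, 2181 and 2517 CPM in the controls and 754, 1139 and 1119 CPM with octanal, and control 1 held most. Without control 1, 8 of the 11 were called.

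Bone genes fell in 14 of 18 cases (median -0.82), with a sum of 5623, 3815 and 4783 CPM in the controls and 2039, 2257 and 2533 CPM with octanal. Bglap, osteocalcin of bone-forming cells, measured 195, 132 and 139 CPM in the controls and 62.3, 79.9 and 84.2 CPM with octanal (log2 fold change -1.04, SE 0.15, adjusted p = 0.000279). Collagen genes fell in 27 of 40 cases (median -0.75). Col1a2, a chain of type I collagen, measured 1512, 977 and 1222 CPM in the controls and 484, 570.0 and 556 CPM with octanal (log2 fold change -1.20, SE 0.13, adjusted p = 8.17e-05). Of 15 macrophage and leukocyte genes 6 fell (median -0.42), among them the complement genes C1qb at -0.80 and C1qa at -0.77. Sums of the bone, marrow and red cell lists did not overlap between the groups. They separated the octanal libraries from the controls, as many but not all of the neuronal and epithelial genes above did. Their part in those results was not tested.

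The endothelial list held the gene with the smallest p. Cldn5, a tight junction protein of vessels, measured 36.9, 36.5 and 37.7 CPM in controls 1 to 3 and 17.4, 17.8 and 17.5 CPM in octanal libraries 1 to 3 (log2 fold change -1.07, SE 0.08, adjusted p = 1.49e-05), and its libraries within a group were nearly equal. Egfl7 at -0.73, Vwf at -0.92 and Cdh5 at -1.53 fell as well, in each fit that left out 1 library. Pecam1 at -0.31, Kdr at 0.04, Tek at -0.58 and Emcn at -0.57 did not pass, so 4 of 8 vessel genes fell (median -0.65). Ensheathing glia and Schwann cell genes had 5 of 12 lower (median -0.35), and 3 without control 3 or octanal 3. Fabp7, a lipid-binding protein of ensheathing glia, measured 175, 172 and 199 CPM in the controls and 127, 104 and 111 CPM with octanal (log2 fold change -0.68, SE 0.08, adjusted p = 0.000105), while the lineage gene Sox10 did not pass, at 0.19. Horizontal basal cell genes had 0 of 6 called. Of 13 globose basal and dividing cell genes 3 rose and 2 fell, and 0 were called in every fit that left out a library. Of 10 respiratory cilia genes 2 rose and 4 fell (median -0.21), with extremes of 0.62 for Ccdc40 and -0.66 for Dnah11. In each fit that left out 1 library 1 of them rose and 2 fell. The 3 muscle genes tested summed to at most 4.36 CPM in any of the 6 libraries, and 0 were called. The 7 genes of olfactory bulb neurons that were tested summed to 63.0, 68.6 and 80.5 CPM in controls 1 to 3 and 60.4, 76.8 and 58.7 CPM in octanal libraries 1 to 3, so the groups overlapped. Of these 1 fell, Eomes (log2 fold change -0.37, SE 0.12, adjusted p = 0.0304), whose call ended without control 2, control 3, octanal 1 or octanal 2.

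The falls among gland genes rested largely on 1 control. Of 18 tested, 6 were lower (median -2.31). Mup4, a lipocalin of nasal gland secretions, measured 107, 215 and 7121 CPM in controls 1 to 3 and 96.8, 80.5 and 235 CPM in octanal libraries 1 to 3 (log2 fold change -4.17, SE 1.27, adjusted p = 0.0223). Control 3 stood far above every other library. Without control 3 the list had 3 rises and 2 falls, with a median of -0.03. It also had 2 falls without octanal 1 or octanal 2, and 2 genes fell in each fit that left out 1 library: the mucin gene Muc5b (log2 fold change -0.84, SE 0.17, adjusted p = 0.00217) and Scgb1c1 (log2 fold change -0.51, SE 0.12, adjusted p = 0.00615). Muc5b did not pass after length and GC offsets. Of 12 microvillar, tuft and ionocyte genes 1 rose and 3 fell, with 1 fall without octanal 1. The ionocyte factor Foxi1 rose (log2 fold change 0.47, SE 0.08, adjusted p = 0.000796) while Cftr, a chloride channel of such cells, fell (log2 fold change -0.83, SE 0.19, adjusted p = 0.00425). These changes held in every fit that left out a library.

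**Figure D4:**
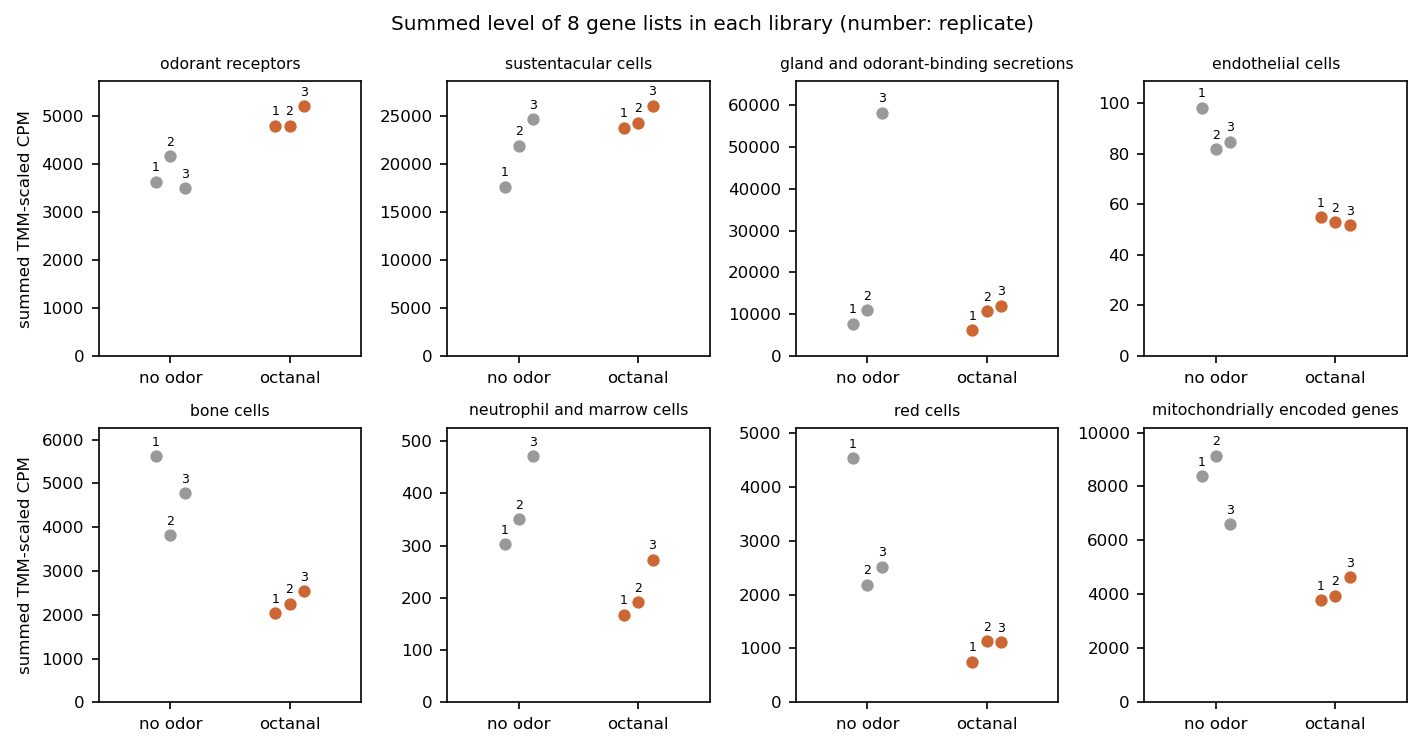
Summed TMM-scaled CPM of 8 gene lists in each of the 6 libraries, with the replicate number beside each point and the axis from 0. Octanal libraries lie above all controls for odorant receptors and below all controls for endothelial, bone, marrow, red cell and mitochondrially encoded genes. Control 3 stands alone in the gland list.

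Many genes of mitochondria and ribosomes fell. Of 15 genes of mitochondrial DNA 13 fell and 0 rose (median -1.02), the same 13 in each fit that left out 1 library. Their sum was 8384, 9146 and 6598 CPM in the controls and 3789, 3961 and 4632 CPM with octanal. The complex I gene mt-Nd4 measured 990.1, 1074 and 773 CPM in the controls and 437, 457 and 507 CPM with octanal (log2 fold change -1.02, SE 0.18, adjusted p = 0.000751). Nuclear genes of the respiratory chain fell in 40 of 73 cases and rose in 3 (median -0.29), and cytosolic ribosomal protein genes fell in 42 of 77 (median -0.27). The share of counts from mitochondrial DNA, a usual sign of tissue state and RNA quality, was 0.794% ± 0.173 (SD, n = 3) in the controls and 0.417% ± 0.0392 (SD, n = 3) with octanal, and its part in other results was not tested. Without octanal 1 these falls counted 23 and 17, without octanal 2 they counted 24 and 19. Genes called lower had a median transcript length of 1360 bases and a GC content of 52.5%, those called higher 1746 bases and 47.8%, and those that did not pass 1525 bases and 50.0%.

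The following genes outside the lists were picked for their small p after their values were seen, and they stand for no group. Sec24d, a cargo adaptor of COPII vesicles, measured 56.8, 65.4 and 61.6 CPM in the controls and 109, 115 and 101 CPM with octanal (log2 fold change 0.82, SE 0.09, adjusted p = 7.76e-05). Sec23b of the same coat rose by 0.81, and Scfd1, which acts in transport between endoplasmic reticulum and Golgi, by 0.80. Polr2b, the second largest subunit of RNA polymerase II, measured 33.4, 32.8 and 34.4 CPM in the controls and 70.0, 66.3 and 69.9 CPM with octanal (log2 fold change 1.04, SE 0.10, adjusted p = 7.76e-05). Syn1, a synaptic vesicle protein, measured 40.3, 36.7 and 29.8 CPM in the controls and 86.6, 77.4 and 75.0 CPM with octanal (log2 fold change 1.16, SE 0.13, adjusted p = 8.17e-05). In each of these genes the octanal libraries were above the controls. Among the falls stood Kmt2a, a histone H3 lysine 4 methyltransferase, at -0.97, and the cytoskeletal linkers Macf1 at -0.73 and Dst at -0.89.

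The largest rises among genes without overlap held several that are hard to count. Tmem150cos, which lies antisense to another gene, measured 0.285, 0.193 and 0.237 CPM in the controls and 1.57, 1.91 and 1.30 CPM with octanal (log2 fold change 2.702, SE 0.40, adjusted p = 0.000268). Whether the counting used strand is not given in the sources used here. The clustered protocadherin genes Pcdhga6 (log2 fold change 2.16, SE 0.39, adjusted p = 0.000989) and Pcdhga1 (log2 fold change 2.12, SE 0.52, adjusted p = 0.00717) share their constant exons with their neighbours, so their counts are uncertain. Trpc2, the channel of vomeronasal neurons that some olfactory neurons also use, measured 1.101, 2.31 and 0 CPM in the controls and 3.14, 2.89 and 6.09 CPM with octanal, and its call (adjusted p = 0.024) ended without control 1 or octanal 3. Olfr128 measured 0.571, 0.723 and 0.0947 CPM in the controls and 1.93, 1.19 and 1.34 CPM with octanal (log2 fold change 1.66, SE 0.50, adjusted p = 0.0202) and lost its call without control 3 or octanal 1. Fam205a2 and Fam205a3 are near-identical copies whose reads can be split either way. Fam205a2 measured 0 in each control and 1.75, 2.38 and 1.47 CPM with octanal, and Fam205a3 measured 2.12, 2.36 and 1.61 CPM in the controls and 0 in each octanal library. A count of 0 allows up to 0.145 CPM in the shallowest of the 6 libraries, counting error only. Npcd measured 0, 0 and 0.0947 CPM in the controls and 2.51, 3.52 and 3.61 CPM with octanal. The zinc finger gene Zfp973 measured 0.0408, 0 and 0.0947 CPM in the controls and 3.41, 3.44 and 0.126 CPM with octanal, so octanal 3 was close to the controls. No fold is given for Fam205a2, Fam205a3, Npcd and Zfp973, in each of which the libraries of 1 group were at or under the level that 0 counts allow. The largest falls beside Fam205a3, Ngp and Elane were in genes of marrow, blood and platelets: Camp at -2.28, Chil3 at -2.03, Retnlg at -2.01, Ppbp at -2.09, Prg2 at -2.04, Cldn13 at -2.06 and the antibody segment Igkv5-43 at -2.44.

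cis-3-hexenol, an unsaturated alcohol, was the other single odorant of the batch. Its contrast with octanal takes no control level. The fit still used all 12 libraries of the batch, so the controls entered the low-count filter, the scaling and the estimate of the spread. In edgeR 0 of 19175 genes were called (0%), with 2496 at an unadjusted p under 0.05 and a smallest adjusted p of 0.0769. Genes with that smallest value included mt-Nd6, mt-Co3 and the neutrophil gene Mpo, with log2 differences of -0.998, -1.07 and -1.71. DESeq2 called 236 genes, and edgeR called 803 when fitted on only the 6 libraries of these odorants. The difference (octanal minus cis-3-hexenol, log2) was 2.10 for Fosb with a 95% interval of 1.04 to 3.16, 1.25 for Nr4a1 (0.60 to 1.90) and 1.13 for Nr4a2 (0.60 to 1.67), all 3 with the higher level after octanal. For Lrrc3b it was 0.30 (0.00 to 0.60), for Il33 0.11 (-0.05 to 0.28) and for S100a5 -0.03 (-0.25 to 0.20). Of the 28 genes plotted, 9 had an interval that left out 0, and none passed after adjustment. The edgeR adjusted p was 0.147 for Fosb, 0.159 for Nr4a1 and 0.121 for Nr4a2. List medians of the difference were -0.92 for genes of mitochondrial DNA and -1.34 for neutrophil and marrow genes, with 0 called. The mitochondrial share of counts was 0.779% with cis-3-hexenol, 0.417% with octanal and 0.794% in the controls. Its part in these differences was not tested. Against the shared controls cis-3-hexenol called 2341 genes (12.2%), 5.56% of those tested higher and 6.65% lower. Its log2 fold changes were 0.73 for Nr4a1, 0.97 for Lrrc3b, -0.74 for Atf5, -0.71 for Cldn5 and 0.65 for Il33, beside 1.99, 1.27, -1.14, -1.07 and 0.76 with octanal. Both sets rest on the same 3 controls.

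Decanal, the straight-chain aldehyde with 2 more carbons, was given at the same volume and time in the AD batch. Its effect against the AD controls was compared with the octanal effect in 1 fit of all 24 libraries, while each odorant's own log2 fold change below comes from the fit of its batch. The effects differed for 7845 of 20018 genes (39.2%), 3597 (18.0%) with the larger value for octanal and 4248 (21.2%) with the smaller, and 2.21% and 5.93% of the genes tested differed in these directions by more than 2-fold. Il33 rose by 0.76 with octanal and stood at -0.25 with decanal, a difference of 0.99 (95% interval 0.80 to 1.18, adjusted p = 3.77e-08). Atf5 stood at -1.14 and 0.53, a difference of -1.69 (95% interval -1.96 to -1.41, adjusted p = 7.65e-09). G6pdx stood at 0.78 and -0.36, a difference of 1.13 (95% interval 0.91 to 1.34, adjusted p = 3.18e-08). For these 3 genes the aldehydes gave values of opposite sign. S100a5 stood at 0.24 and 0.39 and did not differ past the threshold (95% interval -0.48 to 0.14), nor did Egr4 at 1.496 and 0.91 (95% interval -0.51 to 1.64). Receptors had 149 of 946 with the larger value for octanal and 6 with the smaller. The red cell gene Hbb-bt stood at -1.68 with octanal and 1.95 with decanal. All 11 red cell genes tested had the smaller value for octanal, with a median difference of -3.42. The same held for 15 of 16 neutrophil and marrow genes (median -4.00), 17 of 18 bone genes (-1.57), 14 of 15 genes of mitochondrial DNA (-2.65) and 77 of 77 cytosolic ribosomal protein genes (-0.75). Mitochondrial genes took 0.26% ± 0.0237 of the counts in the AD controls and 0.774% ± 0.0211 with decanal, and 0.794% ± 0.173 in the OC controls and 0.417% ± 0.0392 with octanal (SD, n = 3 each). Their part in the differences between the aldehydes was not tested. Odorant and batch cannot be told apart in this comparison, although each batch has its own controls. These were the only 2 odorants set against octanal.

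**Figure D5:**
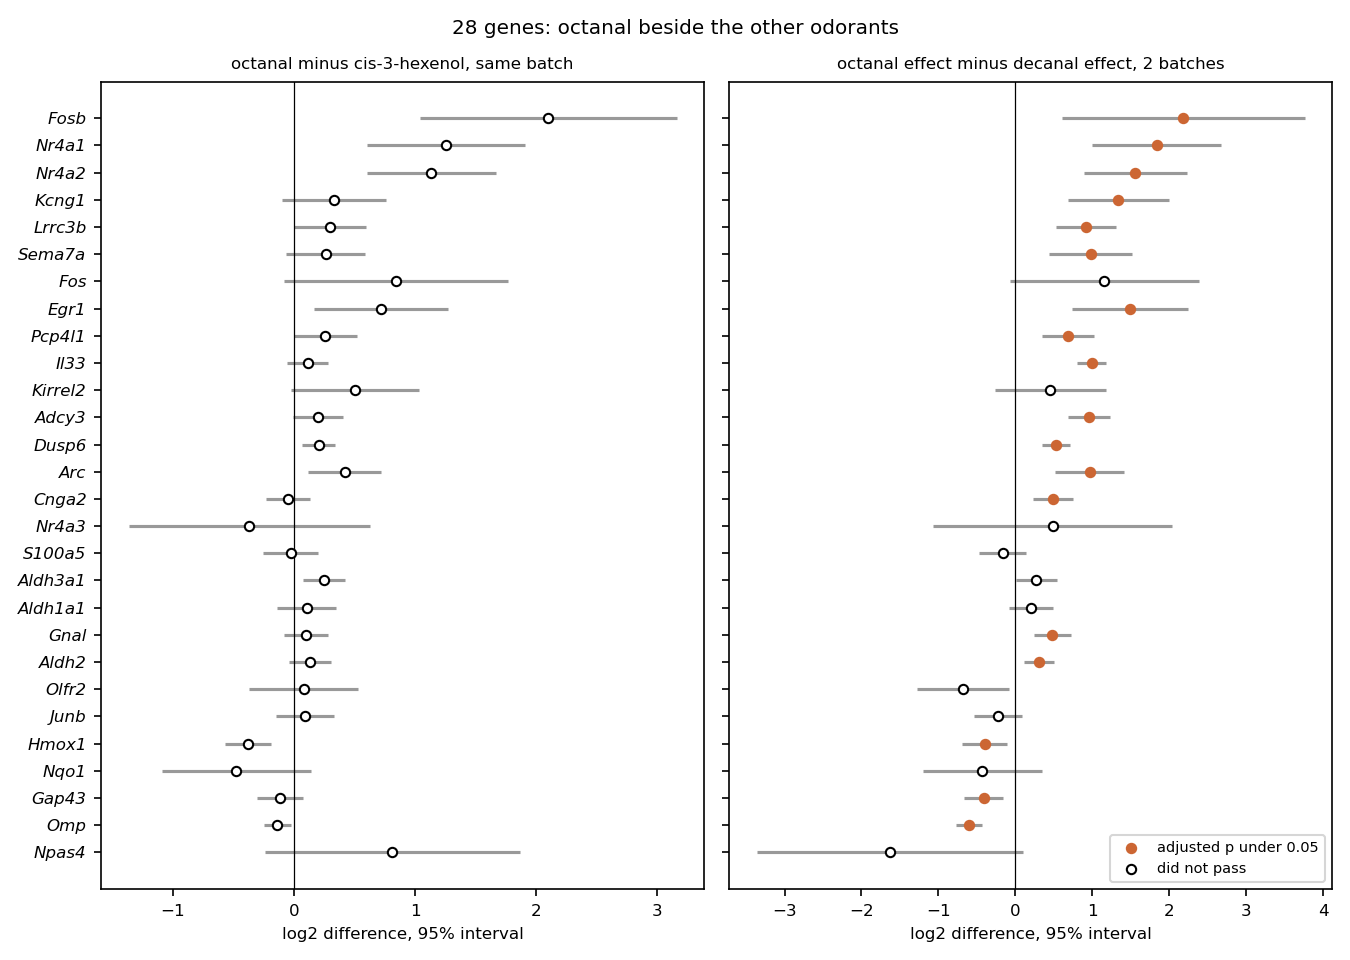
Log2 difference between octanal and cis-3-hexenol (left) and between the octanal and decanal effects, each against its own control (right), for 28 genes in order of their octanal effect. Lines are 95% intervals and filled points passed at an adjusted p under 0.05: 0 on the left and 18 on the right, 15 of these larger with octanal.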

How the data were processed

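Per the submitters' processing notes, reads were handled with STAR 2.7.10b and Salmon 1.10.1 on GRCm39. The authors deposited 1 table of estimated counts per batch, with 57010 gene IDs each. Of the OC values 12.57% were not whole, so the expected counts were rounded to whole numbers, a change of at most 0.5. Symbols came from a GENCODE M21 table (52029 IDs matched), and 0.321% of the counts were in IDs without a symbol.

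Columns were matched to libraries by their names. Low-count genes were removed with filterByExpr, libraries were scaled by TMM, and edgeR 4.0.16 in R 4.3.3 fitted the quasi-likelihood model to the 12 OC libraries without covariates. A threshold of 0.05 was used on Benjamini-Hochberg adjusted p over all genes tested. The decanal comparison used an interaction of odorant and batch over 24 libraries. A loess offset for transcript length and GC content served as an alternative. DESeq2 1.42.0 was an alternative test. On simulated counts for the octanal comparison over 19175 genes, 91% of 2-fold and 98% of 4-fold changes were called, and 13 of 202 calls were false. Few genes were changed in that simulation, none of low level, with as many raised as lowered. These rates may not hold where many genes differ or single libraries stand apart.

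The members and gene lists were chosen with earlier results of these data known. Named by rule were the 10 largest rises and falls without overlap with a mean count of 20 or more, 6 or fewer genes per list by p, the 8 receptors with the smallest p that rose, those that fell, and 28 genes given always, Olfr2 among them. Other names were chosen after their values were seen, and 3 list members that enter the counts are not reported here by name. Of the list symbols, 5 had no match. Promoter windows came from RefSeq on GRCm38.p6 and were matched by symbol. The labels give no pairing, and replicate numbers were not used to pair libraries in the main fit. P-values set the difference between groups against the spread between libraries within groups, estimated over all libraries of a fit. Counting intervals cover counting error only.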

Additional observations from a re-analysis of the deposited data

Results flagged for a closer look

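The octanal effect differed from the decanal effect, by the test of the difference in edgeR over all 24 libraries, for 7845 genes. Of the 28 genes plotted for both odorants 18 differed, 15 of them with the larger value for octanal. The differences that follow are log2 values, octanal minus decanal, each effect against the no-odor controls of its own batch.

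Among early genes the difference was 2.18 for Fosb (adjusted p = 0.0256), 1.83 for Nr4a1 (adjusted p = 0.00083), 1.56 for Nr4a2 (adjusted p = 0.000458), 1.48 for Egr1 (adjusted p = 0.00222) and 0.96 for Arc (adjusted p = 0.00104). Arc itself did not pass for octanal against no odor, at 0.29, and stood at -0.69 with decanal. The phosphatase gene Dusp6 differed by 0.52 (adjusted p = 4.93e-05). Among genes higher in active neurons it was 1.33 for Kcng1 (adjusted p = 0.00174), 0.98 for Sema7a (adjusted p = 0.00412), 0.92 for Lrrc3b (adjusted p = 0.000489) and 0.68 for Pcp4l1 (adjusted p = 0.00163).

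Among transduction genes the difference was 0.96 for Adcy3 (adjusted p = 3.85e-06), 0.48 for Cnga2 (adjusted p = 0.00369) and 0.48 for Gnal (adjusted p = 0.00231). It was -0.60 for Omp (adjusted p = 3.01e-06) and -0.41 for Gap43 (adjusted p = 0.0101). The alarmin gene Il33 differed by 0.99 (adjusted p = 3.77e-08), Aldh2 by 0.30 (adjusted p = 0.0135) and Hmox1 by -0.40 (adjusted p = 0.0255). Gnal, Aldh2 and Hmox1 did not pass for octanal against no odor, at 0.12, 0.10 and -0.20. With decanal these genes stood at -0.38, -0.22 and 0.18. Odorant and batch cannot be told apart in any of these values. Groups of 3 libraries were not tested for single outlying libraries.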

How the results depend on the processing

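Genes called for octanal against no odor numbered 4383 to 5871 over the other settings, against 5640, and 4054 to 5764 without 1 library. Odorant receptors called numbered 89 with length and GC offsets, 90 when these were joined with the replicate block, and 105 to 201 without 1 library, against 161. Against cis-3-hexenol the 0 calls became 581 with no low-count filter, 236 in DESeq2, 803 with only the groups compared in the fit and 20 with length and GC offsets joined with the replicate block. Without 1 library they numbered 0 to 1, and the cause of these shifts was not tested. Calls for octanal against decanal numbered 7277 to 7855, and 7101 to 7886 without 1 library. Of the 254 genes named by rule, 231 kept direction and side of the threshold with length and GC offsets, 18 lost their call and 5 gained one. Without control 3 the gland genes Dnase1, Pnliprp1 and Mup5 changed sign, to log2 fold changes of 0.11, 0.84 and 0.23, and over all fits without 1 library their lowest values were -3.24, -4.03 and -5.53. In the fit without control 3 their edgeR adjusted p values were 0.759, 0.0825 and 0.907.

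The replicate block gave 5196 calls against no odor, 141 receptors, 6 genes against cis-3-hexenol and 7670 against decanal. Deviations of same-numbered control and octanal libraries correlated at 0.116, -0.123 and 0.0311 for numbers 1, 2 and 3. Control 1 correlated best with octanal 1, control 2 with octanal 3, at 0.115, and control 3 with octanal 2, at 0.0787. With so few libraries per group these values cannot decide whether the numbers pair the libraries, and the labels give no pairing. A gene with 0 counts may be present at up to 0.145 CPM in the shallowest library, so low genes such as Fosb in the controls have few reads behind them.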
